A study of Homo sapiens with 2 samples.

Results

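Heat shock proteins and their cochaperones were described in 2 RNA-seq libraries of primitive macrophages, the embryonic macrophage type from which microglia descend, derived from 1231A3, a line of human induced pluripotent stem cells. The members were the protein-coding loci whose symbols name the HSPA (HSP70), HSPB (small heat shock protein), HSP90, HSPH1, HSPD1 and HSPE1 genes, the DNAJA, DNAJB and DNAJC genes, the BAG genes and the heat shock factors HSF, which gave 81 of the 46865 loci in the deposited table. A further 14 pseudogene loci with matching names were left out, with 232 reads in all in Control and 177 in PNU282987. Both groups were labelled wild-type and were differentiated for 30 days with cytokines and inhibitors. The PNU282987 library was labelled as given 100 µM of PNU282987, an agonist of the α7 nicotinic acetylcholine receptor, for 12 hours, although its treatment field names amyloid β instead. The Control library had no agonist in its labels and no stated vehicle. Each group was 1 library of 1 cell line, so no p-value could be given, no difference has a replicate check, and a lower share of a cell type cannot be told apart from less RNA per cell.

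HSP70 proteins bind exposed hydrophobic stretches of unfolded clients in a cycle of ATP binding and hydrolysis. J-domain (DNAJ) proteins deliver clients and start hydrolysis, and BAG and HSPH1 proteins release the nucleotide again. HSP90 matures signalling clients further downstream, HSPD1 with its lid HSPE1 forms the folding chamber of mitochondria, and small heat shock proteins hold aggregation-prone clients. After heat or proteotoxic stress the factor HSF1 activates cytosolic members through heat shock elements, while stress of the endoplasmic reticulum (ER) activates HSPA5 and HSP90B1 through ER stress elements.

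The deposited counts summed to 39316475 reads in Control and 36134391 in PNU282987. Levels are given as CPM, reads per 1000000 of the TMM-scaled library total, and differences as the log2 ratio of PNU282987 over Control with an exact 95% counting interval, which leaves out any spread between cultures. A member was compared when its mean was at least 1 CPM, and called when it differed at least 2-fold with an interval that excluded equality. All 11 macrophage markers had reads in both libraries, with summed levels of 6477 CPM in Control against 6350 CPM in PNU282987; 2 of them, CD14 (96.3 and 539 CPM) and ITGAM (138 and 473 CPM), were higher past the 2-fold rule. The median log2 ratio of this list was -0.26, with intervals below 1 in 7 of the 11 markers, from -0.59 in TYROBP to -0.18 in PTPRC, and above 1 in 4. The 7 pluripotency markers were below 1 CPM, with POU5F1 and TDGF1 at 0 reads in both libraries. Markers of other cells were present too: the 6 mesenchymal markers summed to 2678 and 3024 CPM and the 7 progenitor and granulocyte markers to 694 and 476 CPM. The 5 endothelial markers summed to 152 and 106 CPM, of which PECAM1 alone gave 135 and 84.0 CPM. Of the 4 endothelial markers compared, 2 lay above a ratio of 1 and 2 below, with a median log2 ratio of 0.054. The 6 erythroid and megakaryocyte markers summed to 10.9 and 7.54 CPM. The part of these cells in the results below was not tested.

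Promoter sequences show which members carry the textbook elements of both stress responses. RefSeq windows of GRCh38.p14, 250 bases before to 50 bases from a gene start, were found for 72 of the 81 members, in 96 windows. The heat shock element, searched on both strands as the units GAA, TTC and GAA with 2 bases of any kind between neighbours, occurred in 7 of these 72 genes (9.72%) and in 83 of 15514 protein-coding genes with a window (0.535%). Over all 35116 windows the share was 0.490%. The ER stress element, CCAAT and CCACG with 9 bases of any kind between them on either strand, occurred in 2 of the 72, HSPA5 and HSP90B1, and in 0.0769% of all windows. Printed below are matches that lie upstream of a start, 5′ to 3′ on the strand of the gene, with the element in capitals and up to 8 flanking bases; they show that members far apart in their ratio carry the same element.
HSPA6, first base of the element 74 bases before the start, chr1:161524458-161524486, plus strand: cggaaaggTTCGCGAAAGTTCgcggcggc
HSPA8, 55 bases before, chr11:123062171-123062199, minus strand: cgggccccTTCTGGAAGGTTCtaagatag
HSPA8, 230 bases before, chr11:123062346-123062374, minus strand: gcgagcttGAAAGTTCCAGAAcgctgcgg
HSP90AA1, 88 bases before, chr14:102087112-102087140, minus strand: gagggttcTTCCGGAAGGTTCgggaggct
HSP90AB1, 112 bases before, chr6:44247823-44247851, plus strand: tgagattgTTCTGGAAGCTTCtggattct
DNAJB6, 131 bases before, chr7:157336865-157336893, plus strand: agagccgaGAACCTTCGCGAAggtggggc
HSPD1, 240 bases before, chr2:197500060-197500088, minus strand: attttctgGAAAGTTCTGGAAccgagcga
HSPA5, ER stress element 66 bases before, chr9:125241383-125241417, minus strand: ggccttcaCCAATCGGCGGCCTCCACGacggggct
HSP90B1, ER stress element 194 bases before, chr12:103930208-103930242, plus strand: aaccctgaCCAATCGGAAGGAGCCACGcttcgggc

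Distances are from one annotated start of each gene, which need not be the outermost. The element in HSPD1 overlaps another match that starts 245 bases before the same start, HSP90AB1 held another match 165 bases before, HSP90B1 held another ER stress element 89 bases before, and the match of DNAJA1 lay downstream of its start. A match of these letters is a description and shows neither binding nor a cause. No match was found in the windows of HSPA1A, HSPA1B, HSPB1, HSPH1, HSPE1 or DNAJB1, which says only that these exact letters are not there.

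As a whole the chaperone genes were close to level between the libraries. Of the 81 members 69 were compared, 4 lay below 1 CPM with some reads, and 8 had 0 reads in both libraries. Of the 69 compared, 1 was called higher in the PNU282987 library, DNAJC27, and none lower, or 1.45%, where 5.77% of the 14269 loci compared were called in either direction, 2.96% higher and 2.81% lower. Among the 12570 protein-coding loci compared 4.82% were called, 2.43% higher and 2.39% lower. Within 1.5-fold lay 61 members (88.4%) and 84.0% of other protein-coding loci. At a threshold of 1.5-fold 8 members were called, 4 higher and 4 lower, or 11.6% beside a background of 17.4% for all loci (8.77% higher, 8.66% lower) and 15.8% for protein-coding loci (8% higher, 7.81% lower). Of the 57 compared members that reached 10 CPM none was called at 2-fold, beside 3.01% of such protein-coding loci, and 10.5% at 1.5-fold, beside 12.1%. The median log2 ratio over the 69 members was 0.028, beside -0.0084 over all loci compared and -0.0048 over protein-coding loci. The summed level of all members was 10198 CPM in Control against 11048 CPM with PNU282987, a log2 ratio of 0.12.

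**Figure D1:**
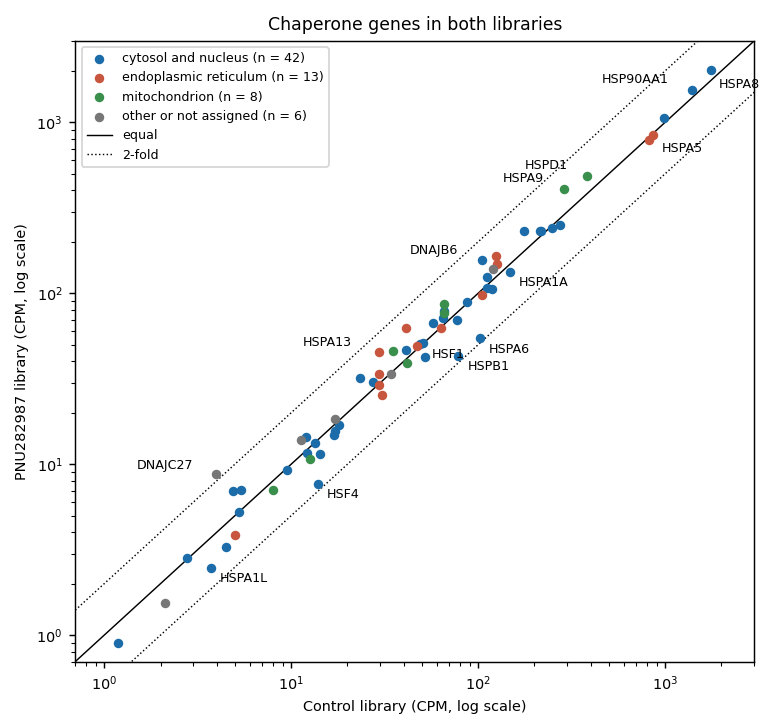
CPM of the 69 compared members in the Control library (x axis, log scale) and the PNU282987 library (y axis, log scale), 1 point per gene, coloured by compartment; the solid line marks equality and the dotted lines 2-fold. DNAJC27 alone lies beyond a 2-fold line, and HSPA6, HSPB1 and HSF4 lie nearest to the lower one.

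The counting intervals are narrow at these depths, so most small differences exceed counting error alone. The interval lay above 1 for 30 members (43.5%) and below 1 for 20, where 33.5% and 33.6% of all loci compared and 34.7% and 34.3% of protein-coding loci lay on these sides. With a mean of at least 10 CPM the shares were 47.4% above and 29.8% below for members. For other protein-coding loci at that level they were 39.3% and 36.9%. Because the spread between cultures is unknown, these differences cannot be assigned to the treatment.

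Cytosolic and nuclear HSP70 genes differed in direction. HSPA8 (chromosome 11, 123057489 to 123062462), the constitutive HSP70 of every cell, had 68828 reads in Control against 74002 in PNU282987, or 1766 and 2030 CPM, a log2 ratio of 0.20 (0.19 to 0.22). Per kilobase of transcript it was the most abundant member in both libraries, at 791 and 909 CPM per kilobase. HSPA6 (chromosome 1, 161524540 to 161526894), a strictly stress-inducible HSP70 in human cells, had 3991 and 1987 reads, or 102 and 54.5 CPM. It was the lowest of all members compared, 1.88-fold lower in PNU282987 with a log2 ratio of -0.91 (-0.99 to -0.83), just short of the 2-fold rule. After correction for GC content and transcript length the log2 ratio of HSPA6 was -0.78 (-0.86 to -0.70). Per kilobase, HSPA6 made up 4.61% of the sum of HSPA8, HSPA1A, HSPA1B and HSPA6 in Control and 2.24% in PNU282987.

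The HSPA6 locus holds 2 assembled transcripts that contain the annotated one and carry the same assembly number as an assembled transcript of its neighbour FCGR2A, an Fc receptor gene of macrophages that ends at 161524048. Reads of longer transcripts may therefore be counted at HSPA6. FCGR2A itself stood at 142 and 135 CPM (log2 ratio -0.075). HSPA6 and FCGR2A added together had a log2 ratio of -0.37 (-0.41 to -0.32). Other Fc receptor genes, which lie beyond HSPA6 on chromosome 1, were lower in PNU282987. FCGR3A, FCGR2B and FCGR2C had log2 ratios of -0.63, -0.51 and -0.44, and FCGR3B was 2.14-fold lower. A lower ratio was therefore not particular to HSPA6 in this region, and a link between these genes was not tested. HSPA7, a near-identical pseudogene of HSPA6, had 103 and 60 reads, and HSPA6 and HSPA7 added together had a log2 ratio of -0.90.

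The other stress-inducible HSP70 pair stood nearly level. HSPA1A (chromosome 6, 31815543 to 31817942) had 147 and 134 CPM, a log2 ratio of -0.14 (-0.19 to -0.083). HSPA1B, which encodes almost the same protein, had 112 and 107 CPM, a log2 ratio of -0.066 (-0.13 to -0.0029). Since reads can be shared between these copies, their sum is the safer value: 259 and 241 CPM, a log2 ratio of -0.11 (-0.15 to -0.065). After correction for GC content and transcript length, the ratios became 0.0061 for HSPA1A and 0.065 for HSPA1B, so their direction depends on that correction. HSPA1L, a testis-rich HSP70 beside them, was lower at 145 and 90 reads (log2 ratio -0.59, -0.99 to -0.20).

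None of the HSP110-type relatives of HSP70, which act as nucleotide exchange factors, differed by 1.5-fold. HSPH1 (chromosome 13, 31134973 to 31162388), the HSP110 of the cytosol, had 176 CPM in Control against 231 CPM with PNU282987, a log2 ratio of 0.39 (0.35 to 0.44). Its relatives HSPA4 and HSPA4L had log2 ratios of 0.12 and 0.38. After correction for GC content and transcript length, HSPH1 kept 0.19 (0.14 to 0.24), HSPA4L had 0.22 (-0.052 to 0.49), and HSPA4 turned to -0.073 (-0.12 to -0.029). HYOU1, the relative of the ER and no member by name, had a log2 ratio of -0.014 (-0.062 to 0.034). HSPA14, a ribosome-associated HSP70, had 17.1 and 15.6 CPM and HSPA12A 2.77 and 2.83 CPM, both with intervals that included equality. HSPA2, known for its role in sperm formation, had 16 and 17 reads, and HSPA12B, an endothelial member, 8 and 0 reads, too few to compare.

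The cytosolic HSP90 pair was the next most abundant per kilobase after HSPA8. HSP90AA1 (chromosome 14, 102080742 to 102139749), the inducible form, had 1388 and 1549 CPM, a log2 ratio of 0.16 (0.14 to 0.18). HSP90AB1 (chromosome 6, 44246194 to 44253883), the constitutive form, had 991 and 1060 CPM, a log2 ratio of 0.097 (0.076 to 0.12). Per kilobase, HSP90AA1 made up 51.2% of the pair in Control and 52.3% in PNU282987, so the balance of both forms was nearly the same in both libraries.

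**Figure D2:**
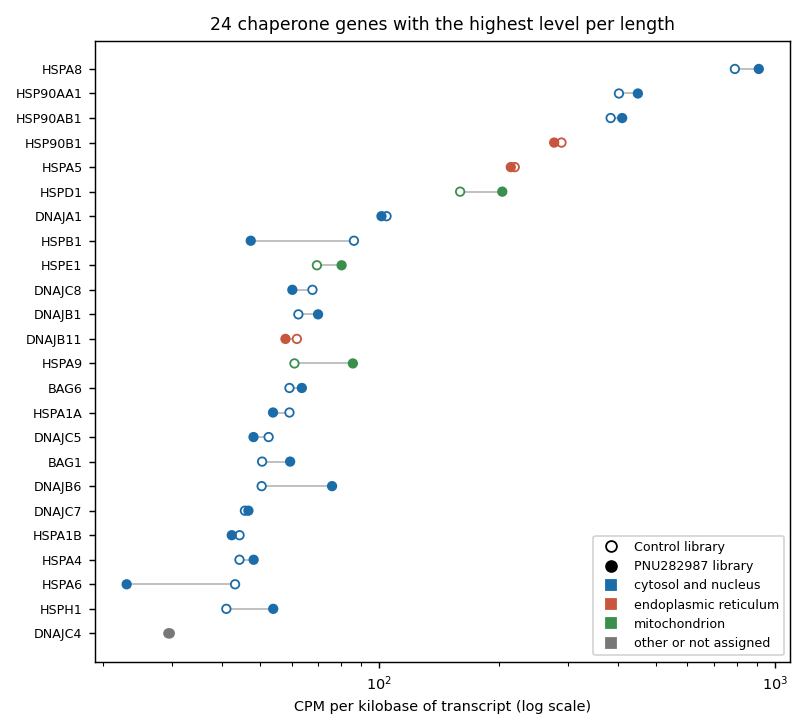
CPM per kilobase of transcript (x axis, log scale) for the 24 members with the highest values in Control, open circles for the Control library and filled circles for the PNU282987 library, coloured by compartment. HSPA8, HSP90AA1 and HSP90AB1 lead in both libraries; HSPB1 and HSPA6 lie to the left of their Control values and HSPD1, HSPA9 and DNAJB6 to the right.

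Of the small heat shock proteins, HSPB1 carried most of the signal and was lower. HSPB1 (HSP27; chromosome 7, 76302673 to 76304292), a stress-inducible holdase that also acts on actin filaments, had 3055 and 1568 reads, or 78.4 and 43.0 CPM. It was 1.82-fold lower in PNU282987, with a log2 ratio of -0.87 (-0.95 to -0.78) that became -0.63 (-0.72 to -0.54) after correction for GC content and transcript length. HSPB8, which works with BAG3 in the removal of damaged clients, had 175 and 120 reads and a log2 ratio of -0.45 (-0.80 to -0.10). HSPB7, best known from heart muscle, lay on the other side at 190 and 254 reads (log2 ratio 0.51, 0.24 to 0.79). HSPB6 was level at 5.23 and 5.24 CPM, and HSPB11, named for the family although it works in transport along cilia, had 17.0 and 14.7 CPM. HSPB2, HSPB3 and HSPB9 had 0 reads in both libraries, where 3 reads would stand at 0.0770 CPM in Control against 0.0823 CPM in PNU282987.

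The heat shock factors differed among themselves. HSF1 (chromosome 8, 144291604 to 144314720), the main stress-responsive factor, had 1978 and 1863 reads, or 50.8 and 51.1 CPM, a log2 ratio of 0.0097 (-0.082 to 0.10). It overlaps DGAT1, and the ratio was -0.11 with the reads of that locus added and 0.21 (0.12 to 0.31) after correction for GC content and transcript length. HSF2, which can pair with HSF1, had 12.2 and 11.6 CPM. HSF4, a factor required in the lens, was 1.81-fold lower, at 541 and 279 reads with a log2 ratio of -0.86 (-1.07 to -0.65). The log2 ratio of HSF4 was -0.85 with the reads of its overlapping locus FBXL8 added and -0.64 after correction. HSF5, a germ cell factor, had 0 reads. The activity of HSF1 is set largely by its trimerisation and modification, which mRNA counts do not show.

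The 7 members with a heat shock element in their promoter window, DNAJA1, DNAJB6, HSP90AA1, HSP90AB1, HSPA6, HSPA8 and HSPD1, had a median log2 ratio of 0.16, and 5 of the 7 lay above a ratio of 1. Their range ran from -0.91 in HSPA6 to 0.59 in DNAJB6, which are among the lowest and the highest members compared. The 57 compared members with a window but no match had a median of 0.0011, and 29 of them lay above a ratio of 1, beside 49.2% of all loci compared. They include HSPA1A, HSPA1B, HSPB1, HSPH1, HSPE1 and DNAJB1, so the comparison is of these exact letters only.

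The cytosolic J-domain gene most abundant per kilobase, DNAJA1, differed little and DNAJB6 was higher. DNAJA1 (chromosome 9, 33025273 to 33039907), the main class A partner of HSPA8, had 248 and 241 CPM, a log2 ratio of -0.042 (-0.084 to -0.00064), or -0.13 after correction for GC content and transcript length. DNAJB1 (chromosome 19, 14514769 to 14560391), the inducible HSP40, had 111 and 124 CPM, a log2 ratio of 0.17 (0.10 to 0.23), which became -0.041 when the reads of the overlapping loci TECR and MIR639 were added. DNAJB6 (chromosome 7, 157337004 to 157417439), which suppresses the aggregation of polyglutamine proteins, had 4063 and 5725 reads, or 104 and 157 CPM. It was 1.51-fold higher in PNU282987, with a log2 ratio of 0.59 (0.53 to 0.65) and 0.58 (0.52 to 0.64) after correction. Per kilobase, DNAJB6 held 20.7% of the DNAJB family in Control, behind DNAJB1 and DNAJB11, and 27.6% in PNU282987, ahead of both.

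Other cytosolic J-domain genes spread to both sides. DNAJA2, another partner of HSPA8, had 65.6 and 79.0 CPM (log2 ratio 0.27), and DNAJC2, which acts on nascent chains at the ribosome, 23.2 and 31.8 CPM (log2 ratio 0.46, 0.33 to 0.58). DNAJB2, a neuronal J-domain protein that feeds clients to the proteasome, had 2015 and 1539 reads, or 51.7 and 42.2 CPM, a log2 ratio of -0.29 (-0.39 to -0.20). DNAJC17, a splicing-associated member, had 14.2 and 11.4 CPM, a log2 ratio of -0.32 (-0.51 to -0.13). DNAJC8, of the spliceosome, DNAJC9, a histone chaperone, and DNAJC5, the cysteine string protein of vesicles, had log2 ratios of -0.17, -0.14 and -0.13. DNAJC7 had a log2 ratio of 0.029, and DNAJA4, DNAJB4 and DNAJB5 had ratios of -0.075, -0.019 and -0.039, all 4 with intervals that included equality. DNAJC21, of ribosome assembly, had a log2 ratio of 0.17 that turned to -0.12 after correction. DNAJC6, an auxilin of clathrin uncoating, had 46 and 33 reads, and DNAJC12 only 11 and 9. DNAJB7, DNAJB8 and DNAJB13, members known mainly from testis, had 0 reads.

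The 6 BAG genes, most of which encode nucleotide exchange factors of HSP70, all had ratios slightly above 1. On the log2 scale these lay between 0.041 and 0.26, with intervals that excluded equality in 5. Of all loci compared, 49.2% lay above a ratio of 1 and 33.5% had intervals above 1. Intervals that excluded equality on either side were found for 67.1%. BAG6, which guards tail-anchored proteins, had 215 and 232 CPM, and BAG1, which links HSP70 to the proteasome, had 57.0 and 67.1 CPM. BAG3 (chromosome 10, 119651380 to 119677819), the stress-inducible member of chaperone-assisted autophagy, had 1905 and 1833 reads, or 48.9 and 50.3 CPM, with an interval of -0.053 to 0.13 that included equality. BAG2, BAG4 and BAG5 had log2 ratios of 0.26, 0.13 and 0.14, and after correction for GC content and transcript length BAG2 and BAG5 turned to -0.093 and -0.046.

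**Figure D3:**
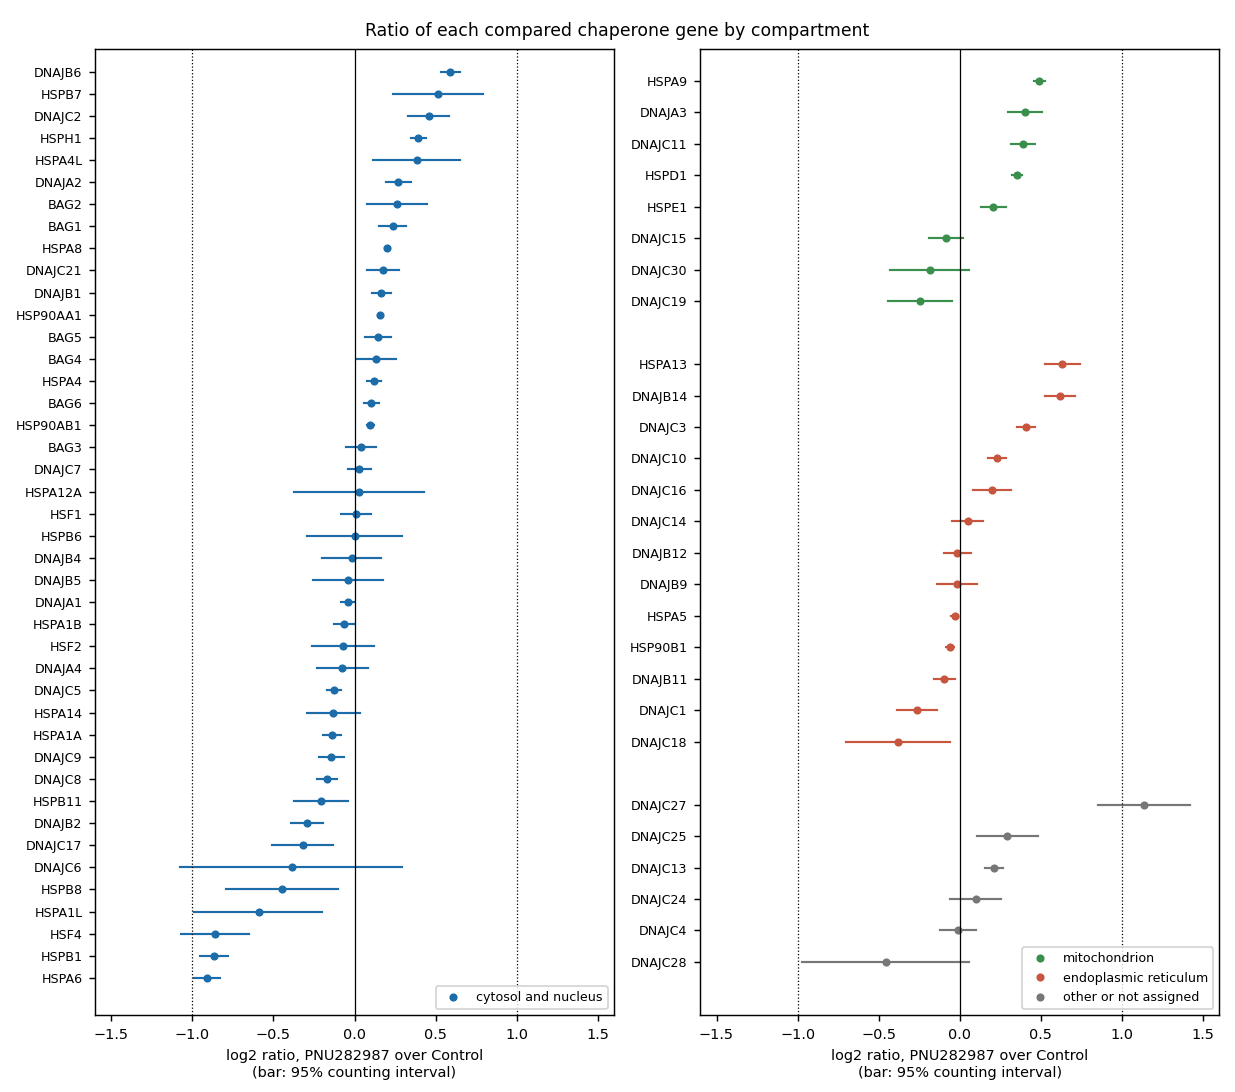
Log2 ratio of PNU282987 over Control (x axis) for each compared member, points with 95% counting intervals as bars, by compartment; dotted lines mark 2-fold. HSPA6, HSPB1 and HSF4 form the low end of the cytosolic and nuclear genes, and 5 of the 8 mitochondrial genes have intervals wholly above 0.

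Over the 42 compared genes of the cytosol and nucleus the median log2 ratio was 0.0054, with 22 above a ratio of 1 and 20 below. None was called at 2-fold, beside 5.77% of all loci compared. At 1.5-fold 4 were lower, HSPA6, HSPB1, HSF4 and HSPA1L, and 1 was higher, DNAJB6. Together these were 11.9% of the 42, beside 17.4% of all loci compared (8.77% higher, 8.66% lower).

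By the compartments assigned here, the mitochondrial chaperones had the highest median. It was 0.28 on the log2 scale over the 8 members, all of which were compared, and none differed by 1.5-fold. Compartments were assigned with earlier results of these data known, and another 8 members were left with none, so this median depends on the assignment. HSPA9 (mortalin; chromosome 5, 138553756 to 138575401), the HSP70 of the mitochondrial matrix and of its import motor, had 11240 reads in Control against 14770 with PNU282987, or 288 and 405 CPM, a log2 ratio of 0.49 (0.45 to 0.53). HSPD1 (HSP60; chromosome 2, 197486584 to 197500274), the chaperonin barrel, had 14816 and 17711 reads, or 380 and 486 CPM, a log2 ratio of 0.35 (0.32 to 0.39). HSPE1 (HSP10; chromosome 2, 197500379 to 197503449), its lid, lies head to head with HSPD1 and had 66.1 and 76.3 CPM, a log2 ratio of 0.21 (0.13 to 0.29).

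DNAJA3, the matrix J-domain partner of HSPA9, was counted 1365 and 1685 times, with a log2 ratio of 0.40 (0.30 to 0.50). DNAJC11, which associates with the cristae-organising complex, had 65.9 and 86.3 CPM, a log2 ratio of 0.39 (0.31 to 0.46). The J-domain proteins of the import motor were not higher: DNAJC19 had 494 and 390 reads (log2 ratio -0.24, -0.44 to -0.050) and DNAJC15 1621 and 1429 reads (log2 ratio -0.086, -0.19 to 0.018). After correction for GC content and transcript length DNAJC19 kept -0.24 (-0.43 to -0.044), and DNAJC15 fell to -0.45 (-0.56 to -0.35). DNAJC30, an inner membrane J-domain protein, had 311 and 256 reads with an interval that included equality.

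The 5 mitochondrial members above a ratio of 1 kept intervals above 1 under every scaling tried, with the reads of overlapping loci added and after correction for GC content and transcript length, where HSPA9 had 0.32 and HSPD1 0.29. The median over mitochondrial members was 0.30 after that correction. Over the 3 that overlap no other locus, DNAJA3 (0.40), DNAJC19 (-0.24) and DNAJC30 (-0.18), the median was -0.18, the value of DNAJC30. The sign of the compartment's median therefore depends on which members are counted. The loci overlapping HSPA9 and HSPD1 are small: with their reads added the ratios were 0.49 and 0.35. For DNAJC11 the ratio fell to 0.27 with the reads of THAP3 added.

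In the ER the leading chaperones had ratios slightly below 1. HSPA5 (BiP; chromosome 9, 125234853 to 125241343), the HSP70 of the ER and a classical target of the unfolded protein response, had 33465 and 30601 reads, or 859 and 839 CPM, a log2 ratio of -0.033 (-0.055 to -0.011). HSP90B1 (GRP94; chromosome 12, 103930410 to 103947926) had 32121 and 28797 reads, or 824 and 790 CPM, a log2 ratio of -0.061 (-0.084 to -0.038). These were the only 2 members with an ER stress element in their windows. After correction for GC content and transcript length their log2 ratios were -0.13 (-0.15 to -0.11) and -0.16 (-0.19 to -0.14). The ratio of HSPA5 to HSP90B1 reads was 1.04 in Control and 1.06 in PNU282987. By contrast the ratio of HSPA9 reads to HSPA5 reads was 0.336 in Control and 0.483 in PNU282987.

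Among other ER genes HSPA13 and DNAJB14 were higher. HSPA13 (chromosome 21, 14371115 to 14383146), an atypical microsomal HSP70, had 1144 and 1658 reads, or 29.4 and 45.5 CPM, 1.55-fold higher with a log2 ratio of 0.63 (0.52 to 0.74). After correction for GC content and transcript length it was 0.35 (0.24 to 0.46). DNAJB14 (chromosome 4, 99896248 to 99946618), an ER membrane protein whose J-domain faces the cytosol, stood at 40.9 and 62.6 CPM, 1.53-fold higher with a log2 ratio of 0.62 (0.52 to 0.71) and 0.50 (0.41 to 0.60) after correction. Its close relative DNAJB12 was level at 63.6 and 62.9 CPM.

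DNAJC3, the lumenal cochaperone also known as an inhibitor of the kinase PERK, had 124 and 165 CPM, a log2 ratio of 0.41 (0.35 to 0.46), or 0.14 (0.085 to 0.19) after correction. DNAJC10, a lumenal disulfide reductase, had a log2 ratio of 0.23 that turned to -0.29 after correction, and DNAJC16 a ratio of 0.20 that became -0.016. DNAJB9, a repressor of the stress sensor IRE1, had 29.6 and 29.2 CPM, and DNAJB11, a partner of HSPA5, had 104 and 97.8 CPM. DNAJC1 and DNAJC18 had log2 ratios of -0.26 and -0.38, and DNAJC14 a ratio of 0.049. The median over the 13 ER members was -0.015, with 6 above a ratio of 1 and 7 below.

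**Figure D4:**
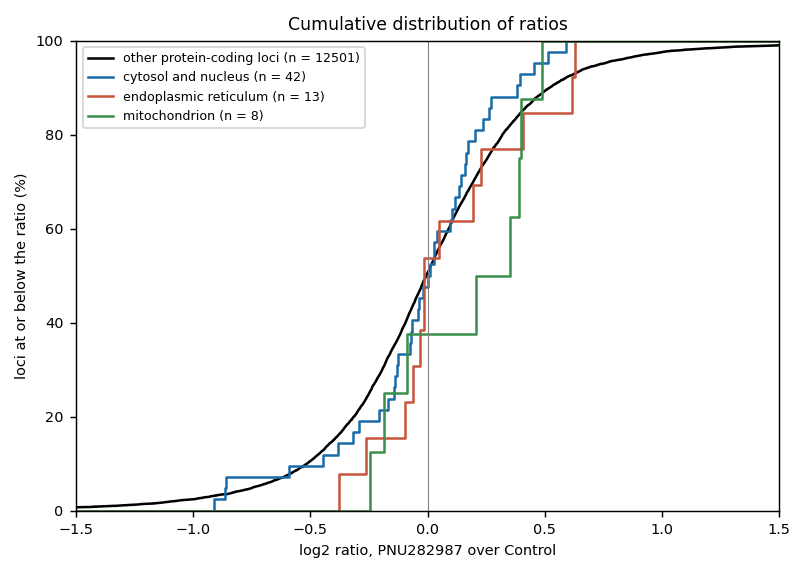
Share of loci (y axis, %) at or below each log2 ratio of PNU282987 over Control (x axis), for 12501 other protein-coding loci and for the compared members of 3 compartments. The cytosolic and ER curves cross 50% near a log2 ratio of 0, and the mitochondrial curve, of 8 genes with a median of 0.28, crosses it to their right. The curves cross one another elsewhere. Of the mitochondrial genes 3 lie below 0, and their highest value, 0.49, is under the highest ER and cytosolic values, 0.63 and 0.59.

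Of the 8 members with no compartment assigned here, DNAJC27 was the one gene past the 2-fold rule. DNAJC27 (RBJ; chromosome 2, 24943636 to 24972094), a small RAB-like GTPase with a J-domain, had 155 and 318 reads, or 3.98 and 8.72 CPM, 2.19-fold higher with a log2 ratio of 1.13 (0.85 to 1.42). After correction for GC content and transcript length the log2 ratio was 0.93 (0.65 to 1.22), under 2-fold. DNAJC13, of endosomal sorting, had 120 and 139 CPM, a log2 ratio of 0.21 that turned to -0.10 after correction, and DNAJC4 was level at 34.0 and 33.7 CPM. DNAJC25 and DNAJC24 had log2 ratios of 0.29 and 0.098. DNAJC28 had 82 and 56 reads with an interval that included equality, DNAJC22 16 and 5 reads, and DNAJB3 none.

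The genes that work with these chaperones, taken from 6 lists that hold no member, gave no call at 2-fold in either direction, beside 5.77% of all loci compared. HSP90 and HSP70 cochaperones had a median log2 ratio of -0.044 over 17 genes, with none past 1.5-fold. After correction for GC content and transcript length this median was 0.046. PTGES3 (p23) had 316 and 295 CPM and ST13 243 and 261 CPM. The chaperonin CCT and prefoldin had a median of 0.083 over 14 genes, with 10 above a ratio of 1 and PFDN1 alone past 1.5-fold, CCT3 at 235 and 251 CPM and CCT5 at 222 and 251 CPM. Other genes that HSF1 can induce had the lowest median, -0.20 over 15 genes, or -0.12 after correction for GC content and transcript length. They differed in direction: 6 lay above a ratio of 1 and 9 below, with intervals above 1 in 3 and below 1 in 8. HMOX1, RGS2 and IER5 were lower at 1.5-fold, where 8.66% of all loci compared were lower. The highest was CHORDC1, with a log2 ratio of 0.54. HMOX1, the heme oxygenase that NRF2 also controls, stood at 1230 and 695 CPM, or -0.82 (-0.85 to -0.80) as a log2 ratio. Several genes of this list respond to other factors as well, and 5 of its genes are also in the cochaperone list.

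ER chaperones and genes of the unfolded protein response had a median of 0.0047 over 21 genes, 11 above a ratio of 1 and 10 below, none past 1.5-fold. After correction for GC content and transcript length this median was -0.095. CALR (calreticulin) had 1221 and 977 CPM, and its membrane-bound relative CANX (calnexin) 1025 and 1190 CPM, so these lectin chaperones differed in direction, with log2 ratios of -0.32 and 0.22, or -0.22 and 0.030 after correction for GC content and transcript length. Other mitochondrial chaperones and proteases had a median of 0.15 over 13 genes, with 9 above a ratio of 1 and intervals above 1 in 7, beside 34.7% of protein-coding loci. Adding the reads of overlapping loci brought that median to 0.035. The protease YME1L1 had 155 and 186 CPM, while ATF5, a factor linked to the mitochondrial unfolded protein response, had 175 and 135 CPM, a log2 ratio of -0.38. Over the 4 compared J-domain genes with other names the median was 0.12, GAK having 157 and 153 CPM and SEC63 93.7 and 109 CPM.

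**Figure D5:**
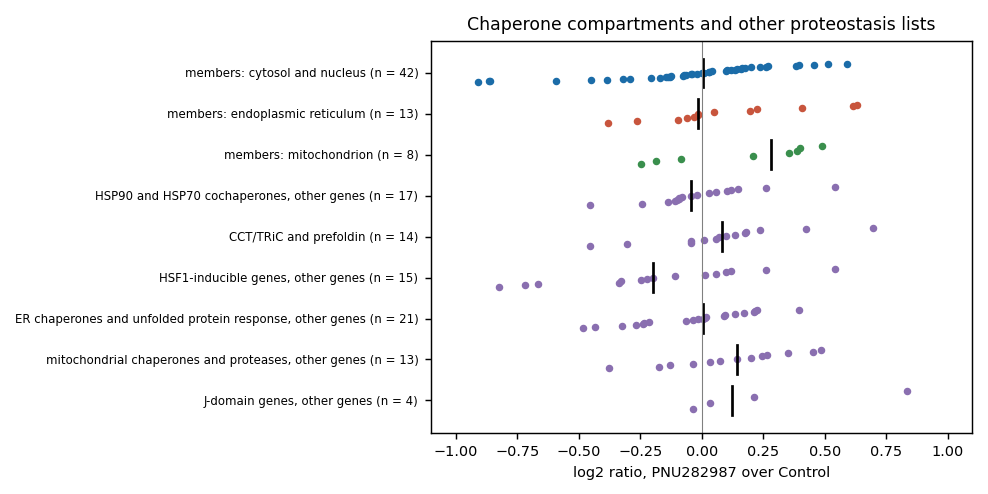
Log2 ratio of PNU282987 over Control (x axis) for each compared gene of the 3 compartments of members and of 6 other lists, 1 point per gene, vertical bars at the medians. The mitochondrial members have the highest median, 0.28, and the other HSF1-inducible genes the lowest, -0.20.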

How the data were processed

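The authors deposited whole read counts per locus for both libraries, with no normalization, per the file headers. Per the labels' protocols a stranded mRNA kit was used, and the submitters' processing notes name HISAT2 2.1.0, GRCh38, StringTie 2.1.3b, edgeR, Trimmomatic 0.38 and FastQC 0.11.7. The counting of mates, strand and multi-mapping reads is not given in the sources used here. In Control 818 loci had 1 read but 958 had 2, and in PNU282987 817 had 1 but 979 had 2, so mates may have been counted singly and intervals may be too narrow.

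Totals were scaled over all loci with TMM (edgeR 4.0.16, R 4.3.3), with factors of 0.991 for Control and 1.01 for PNU282987. Ratios carry exact 95% Clopper-Pearson intervals for counting error only. Lengths came from GENCODE release 29 transcripts matched by RefSeq accession, as the median over transcripts, and the trend was a quadratic surface over GC content and length. Positions and promoters came from RefSeq (GRCh38.p14). The members, compartments and lists were chosen with earlier results of these data known. Named genes were every member past the 2-fold rule, the 5 highest and 5 lowest with at least 5 CPM, the 2 most abundant per kilobase in each compartment, a fixed list of main chaperones and leading genes of each list; other members are given to account for all 81. Protein sequence features were not analysed here. The calling was tested on simulated counts that held counting error only, so that test says nothing of the spread between cultures. Python 3.11.15, pandas 2.3.3, SciPy 1.17.1, matplotlib 3.10.9 and, for 1 alternative, DESeq2 1.42.0 were used.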

Additional observations from a re-analysis of the deposited data

How the results depend on the processing

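The 1 member called higher became 0 with a mean of at least 10 CPM, which DNAJC27 does not reach, 0 with the trend over GC content and transcript length removed, and 4 at a 1.5-fold threshold. The 0 members called lower became 1, DNAJC22, without the CPM filter and 4 at 1.5-fold. Calls over all loci went from 423 higher and 401 lower to 950 and 879 without the CPM filter, 181 and 141 at 10 CPM, and 1252 and 1235 at 1.5-fold. The ER median went to -0.074 with the trend removed, and the mitochondrial median to 0.35 at 10 CPM and to -0.18 over DNAJA3, DNAJC19 and DNAJC30, the 3 free of overlapping loci, an alternative chosen after seeing the data. The median of all members ran from 0.020 to 0.053 under other scalings (library totals, upper quartile, DESeq2) and was -0.016 with the trend removed and -0.017 over members free of overlapping loci. Of the 30 members with intervals above 1, 28 kept them with counts halved and 21 with the trend removed, where DNAJC10, DNAJC13, DNAJC21 and HSPA4 went below 1; of the 20 below 1, 14 and 17 kept them, and HSPA1B went above 1. The cause of these changes was not tested. Leaving out a library was not possible with 1 per group. No paired analysis was possible because each group has 1 library and no test was made. Depth limits the members under 5 CPM: the widest interval among those compared, of DNAJC6, ran from -1.07 to 0.29 on the log2 scale, and that of DNAJC22, below 1 CPM, from -3.39 to -0.068.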
